A study of Bubalus bubalis with 6 samples.

Results

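The 10 genes described here encode MEF2 transcription factors (MEF2A, MEF2C and MEF2D), NFAT transcription factors (NFATC1 to NFATC4), the catalytic subunit alpha of calcineurin (PPP3CA) and the calcineurin regulators RCAN1 and RCAN2. They were found by symbol in the deposited gene table, where each has 1 row, among 24616 listed genes. All 10 were among the 15576 genes tested. PolyA RNA had been sequenced from muscle stem cells (MuSCs) of the water buffalo (Bubalus bubalis), with 3 samples of proliferation in growth medium with fetal bovine serum (GM samples) and 3 samples of differentiation in a medium with little horse serum (DM samples), numbered GM1 to GM3 and DM1 to DM3. The cells of both groups were a primary culture obtained by collagenase and trypsin digestion of fetal longissimus muscle, so cells other than myogenic cells can be present. Whether the samples were separate cultures or animals is not stated in their labels, so p-values measure only the spread between these samples, which may be technical.

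MEF2 factors bind A/T-rich elements in the regulatory regions of muscle genes and act together with the MyoD family during myogenic differentiation. Calcineurin is a phosphatase that is activated by calcium and calmodulin, and it dephosphorylates cytoplasmic NFAT proteins, which then enter the nucleus. RCAN proteins bind calcineurin and can inhibit it, while class IIa histone deacetylases repress MEF2 factors until kinases remove them from the nucleus. In skeletal muscle this pathway is known for its part in myoblast differentiation, fibre growth and the slow fibre program.

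Depth was similar throughout: the gene table sums to between 36657735 and 40305237 counts in a GM sample and to between 35615864 and 38177614 counts in a DM sample. The level of a single gene is compared between samples in CPM, which are counts divided by the library size and its TMM factor. Levels of different genes, and sums and shares over a family, are given as the deposited RPKM, which also divide by the length of the gene but carry no TMM factor. A log2 FC is the log2 fold change of DM over GM from edgeR's quasi-likelihood test, with p-values adjusted over all tested genes. A gene is said to have risen or fallen at an adjusted p-value under 0.05, and to be called at an absolute log2 FC above 1 as well. In bulk samples, fewer cells of a type and less RNA per cell cannot be told apart.

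Of 14 tested skeletal muscle markers 10 were called, 9 higher and 1 lower in DM samples. Among all tested genes 25.3% were called, 15.0% higher and 10.3% lower. The summed level of the skeletal muscle markers went from 2936 to 3506 CPM in GM samples to between 6474 and 8827 CPM in DM samples. Fibroblast markers were also abundant, at 36440 to 37217 CPM in GM samples and 99077 to 124901 CPM in DM samples. Of these, 9 of 14 tested were called, all higher, beside 15.0% of all tested genes called higher. The other marker lists summed to 2711 to 2895 and 2659 to 3061 CPM for smooth muscle and pericytes, 54.4 to 59.2 and 61.3 to 65.5 CPM for cartilage and bone, 46.2 to 50.1 and 30.5 to 41.1 CPM for nerve and glia, 13.7 to 15.9 and 14.3 to 24.4 CPM for endothelium, 7.52 to 9.11 and 7.97 to 15.2 CPM for immune cells and 6.91 to 8.34 and 7.24 to 8.76 CPM for adipocytes, in GM and DM samples in that order. Among the immune markers 8 of 11 stayed under 1 CPM in every sample, PTPRC and CD3E among them, and so did 6 of 11 endothelial markers, PECAM1 and CDH5 among them. DM3 stood apart, with the highest sum of skeletal muscle markers and the lowest sum of fibroblast markers of the DM samples. The part of these differences in the results below was not tested.

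Of the 10 genes, 4 were called, all higher in DM samples, while 25.3% of all tested genes were called, 15.0% higher and 10.3% lower. The 4 genes were MEF2C, NFATC1, NFATC4 and PPP3CA. Without the fold threshold 8 genes had changed, 7 higher and MEF2D lower, against 63.0% of all tested genes, 31.6% higher and 31.4% lower. For 8 of the 10 genes the CPM of GM and DM samples did not overlap, and the same was true of 68.8% of all tested genes. RCAN1 and RCAN2 did not pass the test and had overlapping samples.

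**Figure D1:**
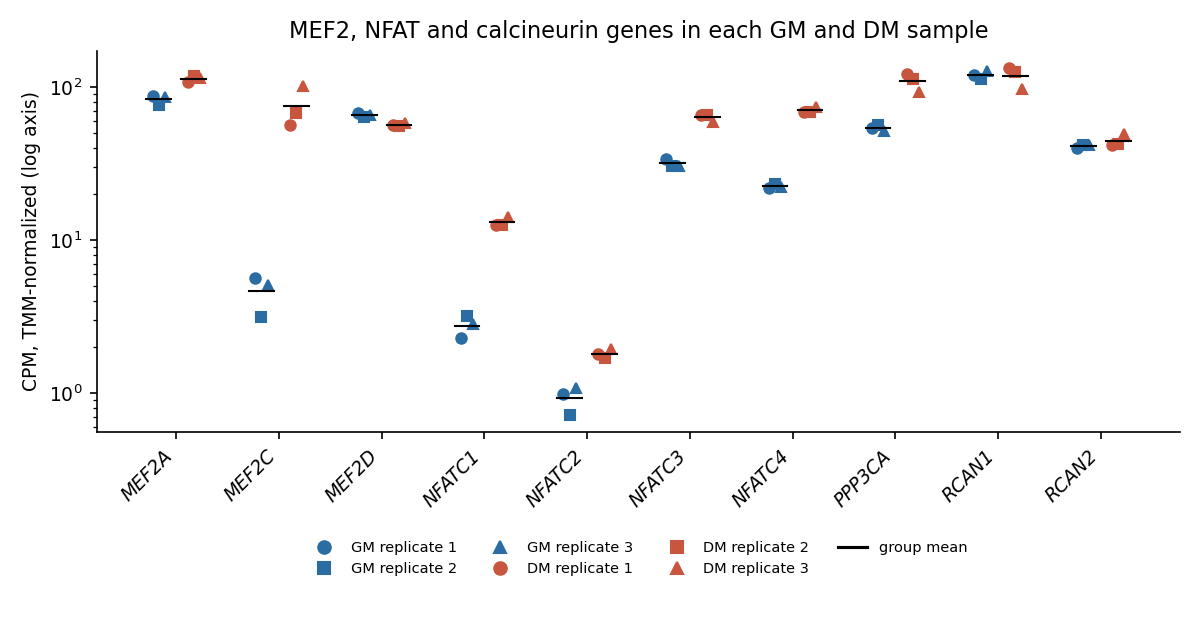
Level of each of the 10 genes in every sample, in CPM after TMM normalization on a log axis, with blue symbols for GM and red symbols for DM samples, a symbol shape per replicate number and a black line at the group mean. MEF2C shows the widest gap, with GM samples between 3.15 and 5.69 CPM and DM samples between 56.6 and 102 CPM, while the groups overlap for RCAN1 and RCAN2.

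Among MEF2A, MEF2C and MEF2D, MEF2C had the largest log2 FC, and on the RPKM scale it was the lowest of these 3 genes in every GM sample and the highest in every DM sample. In CPM, which do not divide by length, MEF2A stayed above it in all 6 samples. MEF2C (ENSBTAG00000020701, chromosome 7, 90616543 to 90784162 on the minus strand, build not named in the table) held 236, 131 and 192 counts in GM1, GM2 and GM3 and 1912, 2468 and 3768 counts in DM1, DM2 and DM3. These correspond to 5.69, 3.15 and 5.06 CPM and to 56.6, 67.4 and 102 CPM. The groups were far apart, with GM2 lowest of all and DM3 highest. The rise was 16.3-fold, a log2 FC of 4.02 (SE 0.25, edgeR adjusted p = 2.49e-07), and MEF2C ranked 322 of 15576 genes by log2 FC. Without DM3 the log2 FC was 3.75.

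MEF2A, a widely expressed member of the family, rose by a small step. MEF2A (ENSBTAG00000010649, chromosome 21, 7045098 to 7225412, minus strand) was at 87.7, 77.0 and 86.0 CPM in GM1, GM2 and GM3 and at 109, 119 and 115 CPM in DM1, DM2 and DM3. The groups did not overlap, and the log2 FC was 0.45 (SE 0.0705, edgeR adjusted p = 0.000243), 1.36-fold. The interval of MEF2A holds a pseudogene on the opposite strand.

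MEF2D, whose muscle splice form is known as an activator of late muscle genes, was the member that fell. MEF2D (ENSBTAG00000046545, chromosome 3, 14380072 to 14413740, plus strand) was at 67.7, 63.8 and 66.0 CPM in GM1, GM2 and GM3 and at 56.3, 55.5 and 58.8 CPM in DM1, DM2 and DM3. The 2 groups lay close together without overlap, and the log2 FC was -0.21 (SE 0.063, edgeR adjusted p = 0.0137). The edgeR adjusted p-value was 0.0557 without GM1 and 0.0507 without GM3, so the fall did not pass the test when either sample was left out. Splice forms of MEF2D cannot be compared, because the mRNA table lists 1 transcript of the gene.

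**Figure D2:**
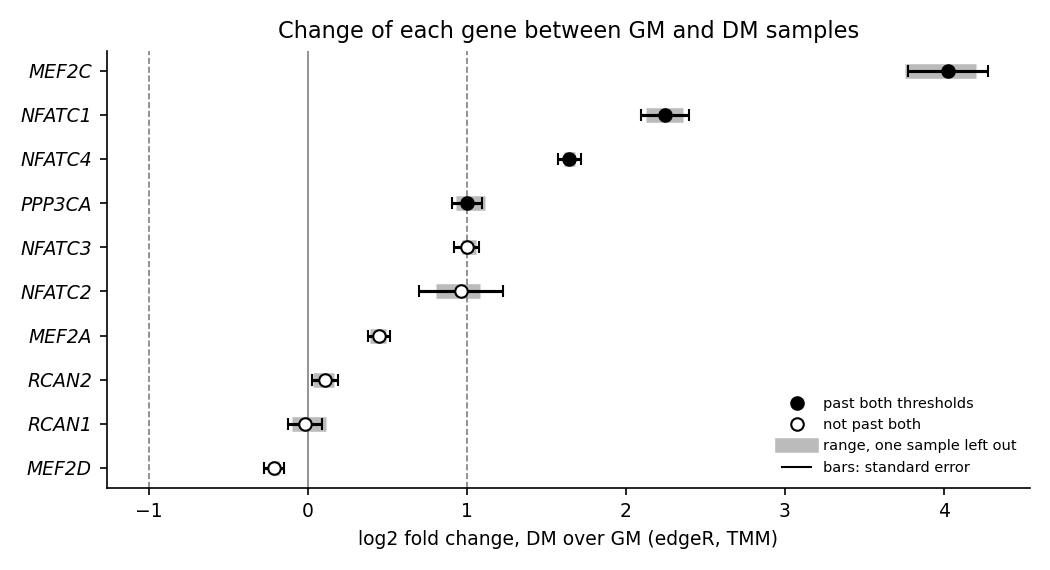
Log2 fold change of each gene, DM over GM, from edgeR with TMM normalization; black points are genes past both thresholds, white points are not, bars are standard errors, grey bands span the values with 1 sample left out in turn, and dashed lines mark the fold threshold. MEF2C lies at 4.02, while PPP3CA at 1.003, NFATC3 at 0.998 and NFATC2 at 0.96 lie at the threshold line.

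On the RPKM scale the composition of the MEF2 pool changed. MEF2C made up 8.60, 5.37 and 7.89% of the summed RPKM of the 3 MEF2 genes in GM1, GM2 and GM3, and 48.7, 52.2 and 61.9% in DM1, DM2 and DM3. MEF2D went from 58.0 ± 1.99% to 23.5 ± 3.52%, and MEF2A from 34.8 ± 0.374% to 22.3 ± 3.45% (SD, n = 3 each). For each of the 3 shares the groups did not overlap, and an exact two-sided permutation test gave p = 0.1, the smallest that 3 samples against 3 allow. The summed level of the 3 genes was 47.1, 41.6 and 45.6 RPKM in GM samples and 75.7, 87.3 and 110 RPKM in DM samples. That of MEF2A and MEF2D alone averaged 41.5 ± 1.90 RPKM over GM samples and 40.8 ± 1.67 RPKM over DM samples, and the groups overlapped (exact permutation p = 0.5). Divided by the TMM factor, an alternative added after the values were seen, this sum was 40.1 ± 1.75 in GM and 42.2 ± 1.08 in DM samples, so the sign of the difference depends on the scaling (exact permutation p = 0.2). The deposited lengths are 5552 bases for MEF2A, 1456 for MEF2C and 2628 for MEF2D, and the shares depend on them: on raw counts the mean share of MEF2C rose by 27.2 percentage points, against 47.0 on RPKM.

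Of the NFAT factors, all 4 rose, and their summed level on the RPKM scale went from 19.998, 19.7 and 19.4 in GM1, GM2 and GM3 to 47.6, 49.3 and 49.8 in DM1, DM2 and DM3. NFATC1 (ENSBTAG00000000656, chromosome 24, 1018253 to 1099817, minus strand), known as a promoter of slow fibre genes, was at 2.29, 3.17 and 2.82 CPM in GM samples and at 12.5, 12.5 and 14.2 CPM in DM samples. Both groups were tight, and the rise was 4.74-fold, a log2 FC of 2.25 (SE 0.15, edgeR adjusted p = 4.43e-07). Even so NFATC1 stayed the second lowest of the 10 genes in DM samples, at 3.77 ± 0.300 RPKM.

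NFATC4 (ENSBTAG00000006366, chromosome 10, 20632357 to 20639714, minus strand) was at 21.9, 23.4 and 22.4 CPM in GM samples and at 68.5, 68.7 and 74.6 CPM in DM samples. The log2 FC of this gene, known best from the heart and the nervous system, was 1.64 (SE 0.071, edgeR adjusted p = 2.06e-08), 3.13-fold. NFATC4 had the smallest adjusted p-value of the 10 genes, and dropping any 1 sample kept its log2 FC within 1.61 to 1.68.

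NFATC3 (ENSBTAG00000004368, chromosome 18, 35640709 to 35732176, plus strand), a member that is abundant in skeletal muscle and acts in early myogenesis, was at 34.0, 30.5 and 30.7 CPM in GM samples and at 65.8, 65.5 and 59.0 CPM in DM samples. It rose without overlap, but its log2 FC of 0.998 (SE 0.077, edgeR adjusted p = 1.13e-06) was just under the fold threshold. With DESeq2 the value was 1.00205 and passed it. The interval holds a U6 snRNA gene on the opposite strand.

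NFATC2 (ENSBTAG00000018270, chromosome 13, 80015601 to 80114072, minus strand), known in muscle for recruiting myoblasts to growing myotubes, was the lowest of the 10 genes. Its counts were 41, 30 and 41 in GM1, GM2 and GM3, then 61, 62 and 72 in DM1, DM2 and DM3, or 0.99, 0.72 and 1.08 CPM and 1.81, 1.69 and 1.95 CPM. The groups did not overlap, and the log2 FC was 0.96 (SE 0.27, edgeR adjusted p = 0.00869). Dropping 1 sample at a time gave values from 0.81 to 1.08, on both sides of the fold threshold.

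**Figure D3:**
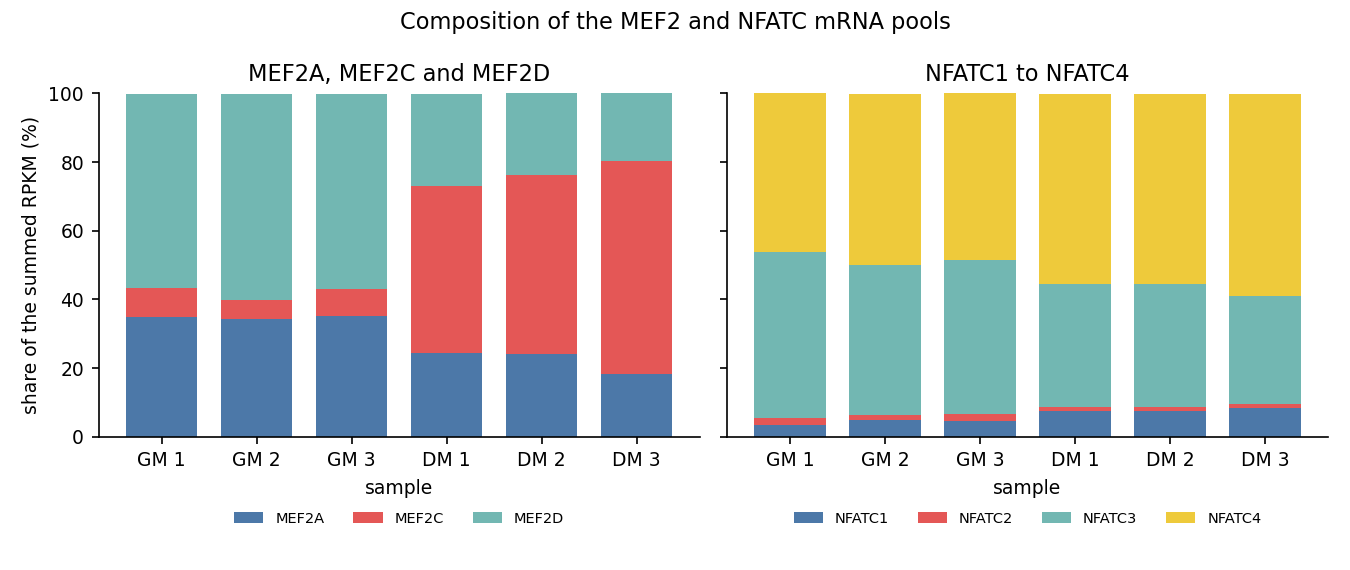
Stacked bars of the share of each gene in the summed RPKM of its family, in percent, for every GM and DM sample, with MEF2A, MEF2C and MEF2D at the left and NFATC1 to NFATC4 at the right. The MEF2C share goes from at most 8.60% in GM samples to at least 48.7% in DM samples, while NFATC3 and NFATC4 together dominate the NFAT pool in all 6 samples.

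Within the NFAT pool, NFATC3 and NFATC4 shared the first place in GM samples, with 45.7 ± 2.38% and 48.2 ± 1.83% of the summed RPKM. In DM samples NFATC4 took 56.6 ± 1.99% and NFATC3 34.4 ± 2.52% (SD, n = 3 each). NFATC1 went from 4.33 ± 0.723% to 7.70 ± 0.472%. The samples did not overlap for these 3 genes (exact permutation p = 0.1 each, 0.133 after Benjamini-Hochberg adjustment over the 4 genes). The NFATC2 share was 1.77 ± 0.367% in GM and 1.30 ± 0.0744% in DM samples, which overlapped (exact permutation p = 0.2).

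PPP3CA, one of the genes for the catalytic subunit of calcineurin, was also higher in DM samples. PPP3CA (ENSBTAG00000016005, chromosome 6, 24812682 to 25136247, plus strand) was at 54.5, 56.8 and 52.1 CPM in GM1, GM2 and GM3 and at 121, 113 and 93.1 CPM in DM1, DM2 and DM3. The groups were well apart, with DM3 lowest among the DM samples. The log2 FC was 1.003 (SE 0.0944, edgeR adjusted p = 5.01e-06), just over the fold threshold. It was under the threshold in 6 of 13 alternatives, among them 0.93 without DM1 and 0.90 with library size alone. The adjusted p-value was at most 0.000115 in every one of the 13.

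The other catalytic subunit genes did not pass the test. PPP3CB was at 20.6 ± 1.49 CPM in GM samples and 17.2 ± 3.32 CPM in DM samples (log2 FC -0.26, edgeR adjusted p = 0.104), and without DM2 its log2 FC was -0.41 (edgeR adjusted p = 0.00611), and with library size alone -0.35 (edgeR adjusted p = 0.0426). PPP3CC was at 17.3 ± 0.324 CPM and 16.8 ± 1.11 CPM (log2 FC -0.04, edgeR adjusted p = 0.684). The regulatory subunit genes PPP3R1 and PPP3R2 were not analysed here. PPP3CA took 46.0, 48.7 and 44.2% of the summed RPKM of the 3 catalytic genes in GM1, GM2 and GM3 and 71.1, 64.0 and 63.8% in DM1, DM2 and DM3, a comparison chosen after the values were seen. These groups did not overlap (exact permutation p = 0.1).

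The calcineurin regulators RCAN1 and RCAN2 were among the more abundant of the 10 genes, and neither passed the test. RCAN1 (ENSBTAG00000020035, chromosome 1, 351708 to 362907, plus strand), of which a short form is a textbook NFAT target, was at 120.3, 113 and 128 CPM in GM1, GM2 and GM3 and at 133, 126 and 98.1 CPM in DM1, DM2 and DM3. DM3 lay below all GM samples, while DM1 lay above them. The log2 FC was -0.02 (SE 0.11, edgeR adjusted p = 0.900), and it was 0.11 without DM3 (edgeR adjusted p = 0.1701). The forms of RCAN1 cannot be told apart, because the mRNA table lists 1 transcript.

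RCAN2 (ENSBTAG00000009302, chromosome 23, 19437558 to 19667184, minus strand) was at 40.1, 42.2 and 41.8 CPM in GM samples and at 41.9, 42.3 and 49.8 CPM in DM samples. DM1 lay within the range of the GM samples and DM2 and DM3 above it, and the log2 FC was 0.11 (SE 0.082, edgeR adjusted p = 0.265). RCAN1 took 59.2 ± 1.78% of the summed RPKM of both genes in GM samples and 57.0 ± 6.40% in DM samples (SD, n = 3 each, exact permutation p = 0.8), with DM3 at 49.6%. The third gene of the family, RCAN3, was low and did not pass the test, with 3.54 ± 1.03 CPM in GM samples and 2.59 ± 0.226 CPM in DM samples (log2 FC -0.45, edgeR adjusted p = 0.117). A pseudogene on the same strand lies in the interval of RCAN2, so reads of the 2 could have been divided by the counting.

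DM3 had the highest level of the DM samples for 6 of the 10 genes, MEF2C, MEF2D, NFATC1, NFATC2, NFATC4 and RCAN2. It had the lowest for NFATC3, PPP3CA and RCAN1. Of the genes called over all 6 samples, each kept a log2 FC above 1 without this sample, at 3.75 for MEF2C, 2.19 for NFATC1, 1.61 for NFATC4 and 1.11 for PPP3CA, and NFATC3 then also passed, at 1.06.

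Ordered by RPKM, RCAN1 was highest in GM samples with 54.8 ± 3.56 RPKM, followed by RCAN2 with 37.6 ± 0.921, MEF2D with 25.9 ± 0.817, PPP3CA with 23.9 ± 1.02 and MEF2A with 15.6 ± 1.10. NFATC4 with 9.48 ± 0.290 and NFATC3 with 9.01 ± 0.585 RPKM came next and overlapped, and MEF2C with 3.29 ± 0.947, NFATC1 with 0.851 ± 0.135 and NFATC2 with 0.349 ± 0.0706 RPKM were the lowest (SD, n = 3). All other neighbours in this order did not overlap. In DM samples RCAN1 with 50.6 ± 7.63, MEF2C with 50.1 ± 15.95, PPP3CA with 44.8 ± 5.68 and RCAN2 with 38.0 ± 3.96 RPKM overlapped with their neighbours at the top. NFATC4 followed with 27.7 ± 1.51, then MEF2D with 20.9 ± 0.703 and MEF2A with 19.9 ± 1.23, which overlapped, and NFATC3 with 16.8 ± 1.01 RPKM. By mean RPKM, MEF2C thus moved from the eighth to the second place. This mean was above 35.9% of tested genes in GM samples and above 89.1% in DM samples. In CPM, which do not divide by length, MEF2A and PPP3CA averaged 114 and 109 in DM samples, above MEF2C with 75.3.

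Annotated transcripts numbered 13 for the 10 genes, of which 3 were called, all higher, against 25.6% of the 16352 tested mRNAs, 15.5% higher and 10.1% lower. Without the fold threshold 9 had changed, a share near that of all tested mRNAs (64.6%, 32.3% higher and 32.3% lower). Of the 9, the MEF2D transcript was lower and the others higher, and both PPP3CA transcripts were among them. The 3 called were the single transcripts of MEF2C, NFATC1 and NFATC4, with log2 FCs of 4.004, 2.23 and 1.63. The 2 transcripts of PPP3CA shared nearly all reads and were just under the threshold, at 0.98 each. RCAN2 has 3 annotated transcripts. ENSBTAT00000053783 held 87.7 to 90.2% of the gene's counts across GM samples and 87.1 to 87.5% across DM samples, while ENSBTAT00000046658 held 61.8 to 65.8% and 64.6 to 65.4%. The same read can count for several transcripts, so these shares add up to more than the gene. None of the RCAN2 transcripts passed the test (adjusted p = 0.217 to 0.515 from edgeR).

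The pattern of MEF2C over the 6 samples was closest to that of muscle structural genes. Likeness was measured as the root mean square difference of centred log2 CPM over the 6 samples, among the 12459 genes that averaged 1 CPM or more. Closest were MYH7, the slow myosin heavy chain, at 0.0847, NRAP, an actin-binding protein of forming myofibrils, at 0.123, and MYLPF, the fast regulatory light chain, at 0.159 on the log2 scale. MYH7 was at 31.8, 17.1 and 31.2 CPM in GM1, GM2 and GM3 and at 312, 340 and 539 CPM in DM1, DM2 and DM3. It had its lowest value in GM2 and its highest in DM3, as MEF2C had. The ratio of MEF2C to MYH7, in CPM over CPM, lay between 0.162 and 0.198 in all 6 samples. As MYH7 was picked for its likeness to MEF2C over these same samples, a nearly constant ratio follows from the choice.

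**Figure D4:**
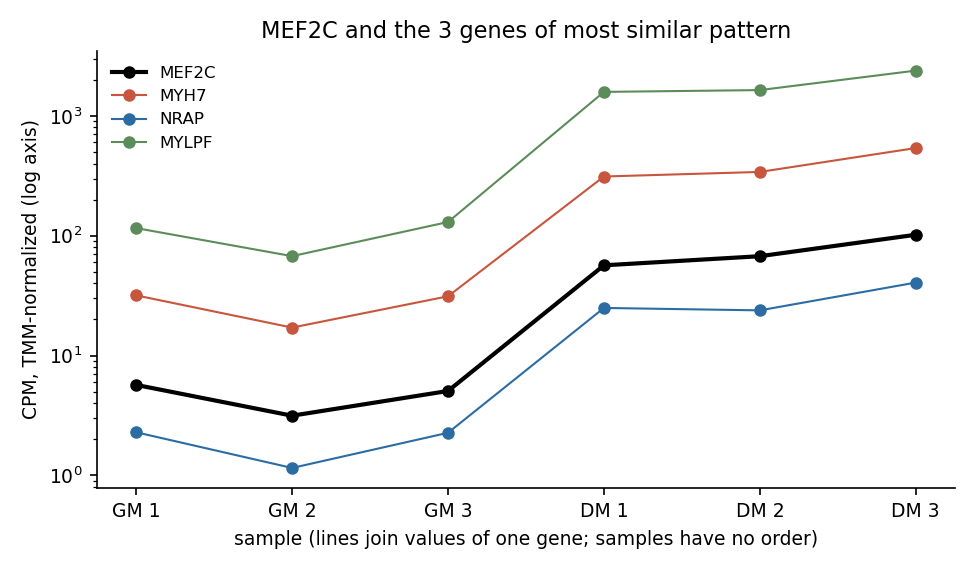
Level of MEF2C and of MYH7, NRAP and MYLPF in each GM and DM sample, in CPM after TMM normalization on a log axis; lines only join the values of a gene. MYH7, NRAP and MYLPF were picked for their likeness to MEF2C over these samples, so nearly parallel curves follow from the choice. The lowest value of each gene is in GM2 and the highest in DM3.

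For NFATC1 the closest genes were FUT1 at 0.0864, PLPP3 at 0.0887 and ZNF385A at 0.105, and for NFATC4 they were FGGY at 0.0466, C14orf1 at 0.0515 and CTSB, a lysosomal protease, at 0.0551 on the log2 scale. PPP3CA was closest to SLC12A2, an ion cotransporter, at 0.0323, CPXM1 at 0.0418 and PRELP, a matrix proteoglycan, at 0.0431. SLC12A2 was at 48.9, 48.4 and 45.6 CPM in GM samples and at 103, 101 and 79.1 CPM in DM samples. Like PPP3CA, to whose pattern it was matched, it was lowest in DM3 among the DM samples.

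Other genes of the pathway were compared in lists written from general knowledge, but with earlier results of these data known. The lists are therefore not independent of these data. Of 168 genes tested over the 8 lists, 86 (51.2%) were called, 73 of them higher, where 25.3% of all tested genes were called, 15.0% higher and 10.3% lower, and the median log2 FC was 0.68, against 0.03 for all tested genes. The lists hold muscle genes, and the summed skeletal muscle markers moved the same way. Some genes are in several lists, so the called shares of the lists are not separate results. Examples are MYH7 and CASQ2 (MEF2 targets and slow fibre), PYGM (MEF2 targets and fast fibre), MYOZ2 (calcineurin and slow fibre) and ATP2A1 (calcium and fast fibre).

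In the list of calcineurin subunits and regulators, 5 of 15 tested genes (33.3%) were called, 4 higher and 1 lower, a share near the 25.3% of all tested genes. The list median was a log2 FC of -0.04. The calsarcin genes, whose products tether calcineurin to the Z-disc, all rose. MYOZ2 went from 3.57 ± 1.10 to 51.2 ± 10.7 CPM (log2 FC 3.84), and MYOZ3 from GM counts of 2, 2 and 3 to DM counts of 89, 115 and 201. MYOZ1 rose by a log2 FC of 1.96, and NFAT5, an NFAT relative that calcineurin does not control, by 1.36. LMCD1, a calcineurin-linked LIM protein, fell from 41.9 ± 1.82 to 9.19 ± 2.46 CPM (log2 FC -2.19). CALM2, a calmodulin gene, fell by 0.52 on the log2 scale, and CABIN1, a calcineurin inhibitor, by 0.30.

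Of 25 tested calcium entry and store genes, 11 (44%) were called, 10 higher and 1 lower, beside 25.3% of all tested genes, and the median log2 FC was 0.70. Largest were the rises of ATP2A1, the fast calcium pump of the sarcoplasmic reticulum, from 4.98 ± 2.10 to 104 ± 27.3 CPM (log2 FC 4.38), and of the calcium release channels RYR1 (3.46) and RYR3 (2.88). The store-operated entry channels ORAI1 and ORAI3 rose by log2 FCs of 1.29 and 1.53, and their sensor STIM1 by 0.95. TRPC6, a cation channel, was the 1 called lower: its counts were 53, 47 and 67 in GM1, GM2 and GM3, then 0, 2 and 11 in DM1, DM2 and DM3.

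Among 13 tested NFAT kinases and export genes only DYRK1B was called (7.69%, beside 25.3% of all tested genes), from 10.8 ± 0.327 to 27.4 ± 1.06 CPM (log2 FC 1.34), and the median of the list was -0.05. The kinase genes GSK3A, GSK3B, CSNK1A1 and CSNK1E were not found by symbol among the listed genes, so the list says nothing about them. DYRK1A, a kinase that primes NFAT for export, had a log2 FC of 0.12 (edgeR adjusted p = 0.312) and did not pass the test. XPO1, the nuclear exporter, fell by 0.56 on the log2 scale.

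Of 40 tested MEF2 kinases, corepressors and partners, 12 (30%) were called, 10 higher and 2 lower, a share near the 25.3% of all tested genes. The list median was a log2 FC of 0.23. KLHL31, a muscle kelch protein, had the largest rise among those with a mean of at least 1 CPM, from 0.986 ± 0.468 to 10.7 ± 2.38 CPM (log2 FC 3.44). The p38 kinase genes MAPK11 and MAPK12 rose by log2 FCs of 3.16 and 2.22, their activator MAP2K6 by 2.08, and MAPK14 by 0.40. CAMK2A, a calcium- and calmodulin-dependent kinase, rose by 2.74 and MEF2B, the remaining MEF2 gene, by 2.10, to 2.58 ± 0.376 CPM. Of the class IIa deacetylases, HDAC5 fell by 0.66 on the log2 scale, from 153 ± 5.42 to 96.7 ± 7.92 CPM, and HDAC7 by 0.24, while HDAC4 (log2 FC 0.25) and HDAC9 (-0.22) did not pass the test. The 2 called lower were SMARCA4, a chromatin remodeler, with a log2 FC of -1.29, and MYOCD, a smooth and cardiac muscle coactivator, with GM counts of 26, 3 and 8 and DM counts of 1, 1 and 0.

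**Figure D5:**
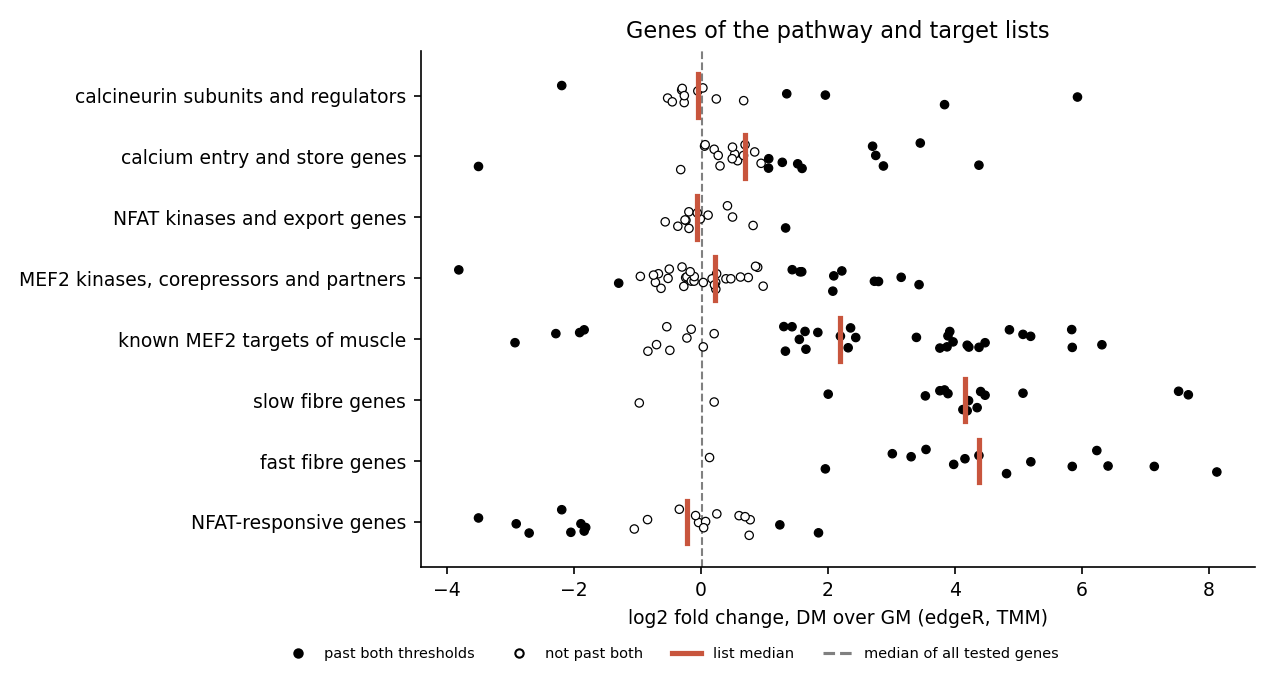
Log2 fold change, DM over GM, of every tested gene of the 8 pathway and target lists; black points are past both thresholds, white points are not, red lines are list medians and the dashed line is the median of all tested genes. The medians of the MEF2 target, slow fibre and fast fibre lists lie at 2.20, 4.16 and 4.38, those of the calcineurin and NFAT kinase lists at -0.04 and -0.05.

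Known MEF2 targets of muscle were called for 31 of 39 tested genes (79.5%), 27 higher and 4 lower, beside 25.3% of all tested genes. The list median was a log2 FC of 2.20. CKM, the muscle creatine kinase, went from 1.19 ± 0.537 to 94.9 ± 10.9 CPM (log2 FC 6.32), and PYGM, muscle glycogen phosphorylase, from 0.464 ± 0.232 to 26.9 ± 5.57 CPM (5.85). COX6A2, a muscle subunit of cytochrome oxidase, had GM counts of 1, 1 and 3 and DM counts of 67, 104 and 106. The 4 that were called lower were HSPB7, a small heat shock protein, with a log2 FC of -2.92, ADAMTS1, a secreted protease, with -2.28, XIRP1, an actin-binding protein, with -1.91, and NR4A1, an immediate early receptor, with -1.83.

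Fibre-type genes moved together for both types. Of 16 slow fibre genes 14 were called, all higher, with a median of 4.16, and of 15 fast fibre genes 14 were called, all higher, with a median of 4.38, beside 15.0% of all tested genes called higher. MYBPC1, a slow myosin-binding protein, rose by a log2 FC of 7.68 and CASQ2, the slow calsequestrin, by 5.08, while MYL3 had GM counts of 1, 0 and 0 and DM counts of 41, 46 and 144, in an interval that overlaps PTH1R on the opposite strand. Among fast genes, MYL1 rose by 6.24 and MYH4 by 6.42, and MYH1 had GM counts of 0, 1 and 3 and DM counts of 200, 258 and 92. Reads of similar myosin genes could have been divided by the counting. PPARGC1A, a coactivator of the slow program, rose from 0.275 ± 0.113 to 3.77 ± 0.577 CPM.

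Of 22 tested NFAT-responsive genes, known from immune and other cells as well as myoblasts, 10 (45.5%) were called, 2 higher and 8 lower. The list was covered in part: of 28 genes found by symbol 9 stayed under 1 CPM in every sample, IL4 and TNF among them. CDK4, another of these, had no counts in any sample, and CXCL8 and VCAM1 were not found by symbol. Of all tested genes 25.3% were called, 15.0% higher and 10.3% lower. The list median was a log2 FC of -0.21. CCND1, a G1 cyclin, fell from 45.3 ± 3.92 to 6.01 ± 3.25 CPM (log2 FC -2.90), MYF5, a myoblast determination factor, from 143 ± 6.38 to 21.998 ± 3.34 CPM (-2.70), and LMCD1, which is in this list as well, by 2.19. EGR2 and RGS2 were called higher, with log2 FCs of 1.86 and 1.25. PTGS2, which encodes an inducible prostaglandin synthase, was at 6.80 ± 0.187 CPM in GM and 8.12 ± 3.25 CPM in DM samples and did not pass the test.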

How the data were processed

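PolyA RNA-seq of 3 GM and 3 DM samples was analysed, grouped by their titles. The authors aligned reads with HISAT2 to a buffalo genome, per their methods, but the identifiers in the deposited tables are those of cattle in Ensembl, no build is named there, and the submitters' processing notes name Bowtie 0.12.2 and the mouse builds mm8 and mm9. The deposited counts are raw counts per gene or mRNA transcript, without normalization. For the deposited RPKM values the authors divided these by annotated length and library total. Lists of fold changes, p-values and q-values from the authors' own comparison, and the ncRNA table, were not used. Strand-specific counting is not stated.

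Features with at least 10 counts in total entered the quasi-likelihood test of edgeR 4.0.16 under R 4.3.3 (TMM, glmQLFit and glmQLFTest, Benjamini-Hochberg adjustment over all features tested). TMM factors were 1.03 to 1.04 in GM and 0.948 to 0.983 in DM samples, and RPKM carry no such factor. Standard errors come from the F statistic. Shares of RPKM were compared by exact permutation. The pipeline was checked on simulated counts. Alternatives were DESeq2 1.42.0, other scalings and filters, no fold minimum, a replicate block and each sample left out. Tables were summarised with Python 3.11.15, pandas 2.3.3 and numpy 2.4.6.

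The genes and lists were chosen with earlier results of these data known. Named besides the 10 genes were the calcineurin subunits and RCAN3, the 3 called genes of largest change in each list that averaged 1 CPM or more, and the 3 closest patterns of each called gene. MYOZ1, NFAT5, CALM2, CABIN1, the ORAI genes, STIM1, TRPC6, DYRK1A, XPO1, MAPK12, MAPK14, MAP2K6, MEF2B, the HDAC genes, SMARCA4, MYOCD, the targets called lower, PPARGC1A, EGR2, RGS2 and PTGS2 were named after their values were seen.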

Additional observations from a re-analysis of the deposited data

How the results depend on the processing

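Over 13 alternatives, MEF2C, NFATC1 and NFATC4 kept their calls wherever they were tested. NFATC1 and NFATC2 are left out by the RPKM rule (at least 1 in more than 50% of samples). PPP3CA, NFATC3 and NFATC2 moved across the fold threshold, and MEF2D missed the adjusted p-value without GM1 and without GM3. Without a fold minimum 8 genes, 9 transcripts and 137 list genes passed, and 5 transcripts were called under the RPKM rule. Leaving out each sample gave 3 to 6 called genes, 84 to 87 list genes and 3 to 6 transcripts, with 6 without DM3 and 5 without GM2. RCAN1 turned to 0.0397 on the log2 scale under the RPKM rule (its transcript to 0.0283) and ranged from -0.10 to 0.11 with samples left out (transcript -0.12 to 0.0929). PPP3CC turned to 0.0123 under the RPKM rule and ranged from -0.0733 to 0.0165 with samples left out. With library size alone the RCAN2 transcripts turned to -0.0212, -0.0217 and -0.0881, and the last ranged from -0.0167 to 0.12 with samples left out. The difference in the RCAN1 share ranged from -4.54 to 1.37 percentage points with samples left out. Dividing RPKM by the TMM factor, added after seeing the data, turned the DM minus GM difference of the MEF2A and MEF2D sum from -0.70 to 2.08 and that of the RCAN1 and RCAN2 sum from -3.90 to 2.26, and moved that of the NFATC sum from 29.2 to 31.6. The cause of the other shifts was not tested. With the replicate number as a block (replicate block) 3 genes, 3 transcripts and 86 list genes were called, PPP3CA being lost at 0.996. Deviations of same-numbered samples correlated at -0.0218 to -0.00756. These values cannot decide whether the numbers pair the samples, because spread that may be technical could hide a pairing. NFATC2 and MYOZ3 rest on few counts.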

Other observations

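The ratio of MEF2C to MYOG, a myogenic factor that acts with it, was not constant over the samples. In CPM over CPM, the GM samples had ratios of 0.109, 0.0788 and 0.0761, and the DM samples 0.351, 0.365 and 0.656. The ratio of MEF2C to NRAP lay between 2.23 and 2.83, and that to MYLPF between 0.0357 and 0.0492, in the same 6 samples. The ratio of PPP3CA to SLC12A2 lay between 1.12 and 1.18. These ratios were chosen after the values were seen. NRAP, MYLPF and SLC12A2 had been picked for their likeness over the same samples, so their nearly constant ratios follow from the choice. MYOG was not picked in that way. The summed RPKM of PPP3CA, PPP3CB and PPP3CC was 51.7 ± 0.509 in GM samples and 67.6 ± 7.01 in DM samples (SD, n = 3 each), without overlap (exact permutation p = 0.1). That of RCAN1 and RCAN2 was 92.4 ± 3.54 and 88.5 ± 3.73, with overlap (exact permutation p = 0.4). Divided by the TMM factor it was 89.4 ± 3.39 and 91.6 ± 4.35, also with overlap (exact permutation p = 0.6), so the sign of that difference depends on the scaling.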
